A study of Mus musculus with 9 samples.

Results

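Cdkn1a, the gene of the cell cycle inhibitor p21, was examined together with 9 other genes of growth arrest in mouse dorsal lateral geniculate nucleus (dLGN), where the thalamus passes retinal input on to the visual cortex. The 10 genes were taken by symbol from tables of 20011 genes for 1 h of light and 20399 genes for 8 h, and all 10 were present in both. The genes were selected on the measured 8 h values of Cdkn1a, which were strongly higher than at 0 h, so those values are given as a description with no test. The other members are Cdkn1b and Cdkn1c, which encode the related inhibitors p27 and p57, the stress genes Gadd45a, Gadd45b and Gadd45g, the mTORC1 inhibitor Ddit4, the antiproliferative gene Btg1, the cyclin gene Ccnd1, and Trp53, which encodes p53.

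Total RNA depleted of ribosomal RNA was sequenced from the dissected dLGN of C57BL/6J mice of both sexes at postnatal day 27, all of which had been kept in the dark from postnatal day 20 to postnatal day 27. The groups are 0 h, 1 h and 8 h of light after the dark period, with 3 libraries each, and the labels count these as independent samples from 3 mice per time, which the sex-linked genes do not bear out. The 0 h mice, the baseline, had therefore also been dark-reared, and mice with a normal light history were not analysed here. No source used here states the time of day at which each group was taken, so hours of light and time of day cannot be told apart.

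Cells leave the division cycle when inhibitors of the CIP/KIP family, p21, p27 and p57, bind cyclins and their kinases and so keep the retinoblastoma proteins active. Transcription of Cdkn1a is best known as a target of p53 after DNA damage, but other inputs, among them glucocorticoid hormones, also raise it. In the brain, where most neurons do not divide, these genes are still expressed, and GADD45 proteins are known for roles in stress kinase signalling and in removal of DNA methylation after neuronal activity.

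Depth ran from 5.73 M counts (0 h replicate 1) to 22.6 M counts (8 h replicate 1), so that 3 reads correspond to 0.509 and 0.136 counts per M counts of a TMM-scaled library (CPM), counting error only. All 6 relay neuron markers were present, with Slc17a6, the vesicular glutamate transporter of thalamic neurons, at 449 CPM ± 32.9 (SD, n = 3) at 0 h. Neurod6, a gene of cortical and hippocampal neurons, was highest in 0 h replicate 2, at 18.2 CPM, followed by 1 h replicate 1, at 13.8 CPM, and by 8 h replicate 1, at 3.62 CPM, and no other library exceeded 0.728 CPM. Cdh9, of the relay neuron markers, was also highest in 1 h replicate 1 (10.2 CPM) and 0 h replicate 2 (7.19 CPM). No other library exceeded 2.85 CPM of Cdh9. RNA of the X-inactivation gene Xist was near absent in 0 h replicate 3 (0.331 CPM), and the Y-linked gene Ddx3y was near absent in 8 h replicate 2 (0.0537 CPM), whereas the other 7 libraries held both, with 218 to 520 CPM of Xist and 15.3 to 38.6 CPM of Ddx3y. A single mouse of either sex does not give both, so these 7 libraries hold RNA of more than 1 mouse, against the labelled 3 mice for 3 libraries, and the number of mice behind a library is not known. Results that change without these libraries are given with both values.

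Cdkn1a was low in the dark and after 1 h of light, and several times higher after 8 h. Its level was 3.22, 4.40 and 5.82 CPM in the 3 libraries at 0 h. At 1 h it was 5.10, 3.82 and 5.58 CPM. At 8 h it was 22.3, 34.4 and 22.3 CPM. All 3 libraries at 8 h lay above every library of the earlier times, while the ranges at 0 h and 1 h overlapped. The reads behind these levels were 19, 82 and 88 at 0 h, 45, 65 and 98 at 1 h, and 493, 641 and 389 at 8 h.

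**Figure D1:**
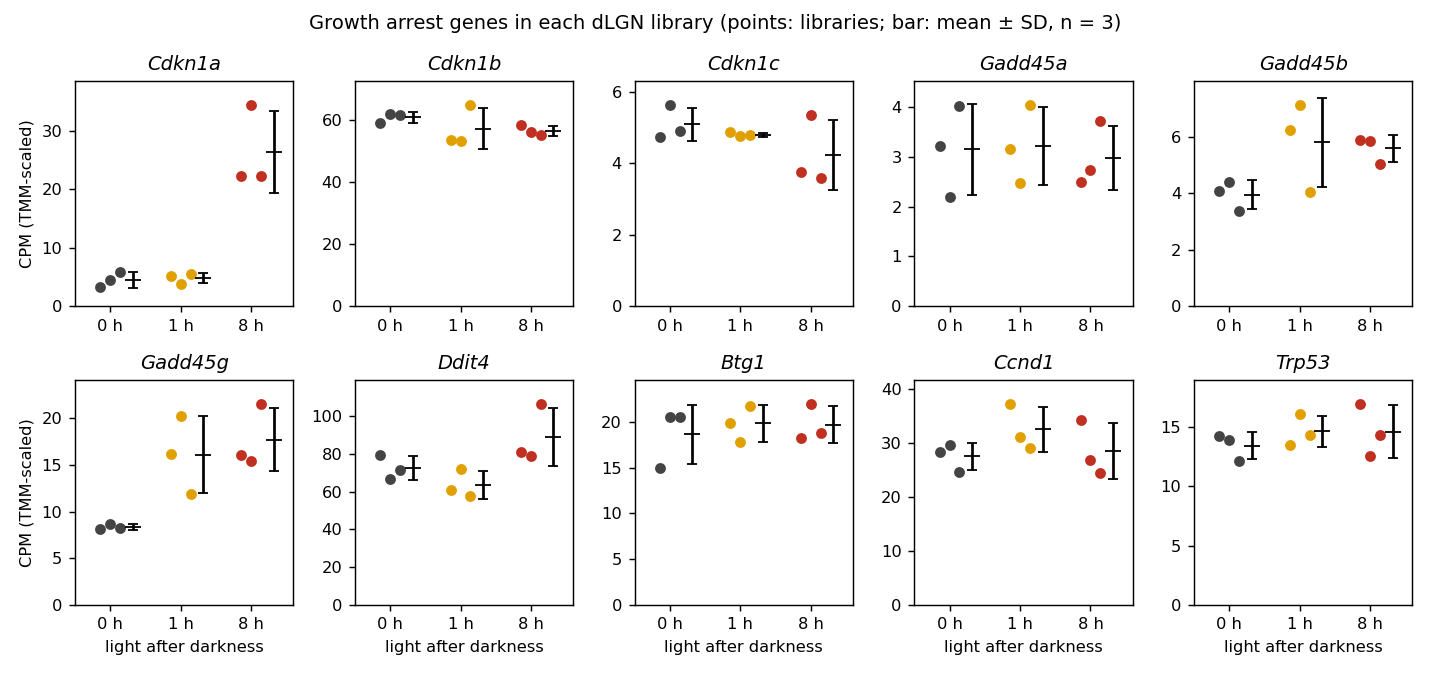
Level of each of the 10 genes in CPM (y axis, from 0, TMM-scaled) at 0, 1 and 8 h of light (x axis); points are libraries and bars give the mean ± SD of 3. Cdkn1a sits between 3.22 and 5.82 CPM at 0 and 1 h and between 22.3 and 34.4 CPM at 8 h, and Gadd45g is above its 0 h range at both 1 h and 8 h.

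The log2 fold change of Cdkn1a at 8 h over 0 h was 2.48 ± 0.22 (SE), or 5.57-fold, and ranked 5 from the top among 15330 genes tested. Over 1 h it was 2.45 ± 0.22 (SE), rank 3 of 15586. The authors' deposited table gives a fold change of 5.66 at 8 h. The highest of the 8 h libraries, replicate 2 at 34.4 CPM, is the library without Ddx3y, and leaving it out gave a log2 fold change of 2.24 over 0 h. At 1 h the gene had a log2 fold change of 0.05 ± 0.24 (SE) over 0 h, with a 95% interval from -0.47 to 0.58 (edgeR quasi-likelihood test, adjusted p = 1.00), and its sign turned without 0 h replicate 1 (-0.08), 0 h replicate 2 (-0.006) or 1 h replicate 3 (-0.08).

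Cdkn1a (Entrez gene 12575) spans 29090986 to 29100722 on chromosome 17 of GRCm38, plus strand, with 4 annotated exons and 2026 exonic bases. An unclassified transcript on the opposite strand, AC167363.2, overlaps 273 of its exonic bases in GENCODE and no source used here states whether the counting used strand, so reads of the pair cannot be told apart. RefSeq (GRCm38.p6) gives the gene 2 promoters, and the counts per gene do not separate their transcripts. The 250 bases before each start are shown because the count of the gene sums the transcripts of both. Capitals mark matches on either strand to TATAAA (the TATA box), GGGCGG (the GC box of the Sp1 family), CACGTG (an E-box), TGACG (a part of the CREB site), AGAACA (a part of the glucocorticoid receptor site) and TGACTCA (the AP-1 site), and no 2 matches overlap in the windows shown. The first window is chr17:29090729-29090978 and the second chr17:29093519-29093768, both on the plus strand.
Cdkn1a first start: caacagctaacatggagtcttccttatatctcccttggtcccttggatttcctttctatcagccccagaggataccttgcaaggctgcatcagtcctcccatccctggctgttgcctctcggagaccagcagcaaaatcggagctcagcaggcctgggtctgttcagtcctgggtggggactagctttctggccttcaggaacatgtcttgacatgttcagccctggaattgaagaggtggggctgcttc
Cdkn1a second start: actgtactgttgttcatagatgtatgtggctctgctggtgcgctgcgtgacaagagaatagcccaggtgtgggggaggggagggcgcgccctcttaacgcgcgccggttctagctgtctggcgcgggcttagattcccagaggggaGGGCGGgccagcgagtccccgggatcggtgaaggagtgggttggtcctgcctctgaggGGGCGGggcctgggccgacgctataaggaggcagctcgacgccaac
The upstream window holds none of the 6 motifs, and the downstream window holds GGGCGG at 2 places, which begin 104 and 46 bases before the start. The 6 motifs include no p53 site, so whether either window holds one was not examined, and lower-case letters do not show that one is absent. GGGCGG is present in 32.7% of 32851 mouse promoter windows of the same length. AGAACA is in neither window and in 16.1% of all windows, and TGACG, in 17.8% of all windows, and TGACTCA, in 4.46%, are in neither as well.

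Neither of the related inhibitors passed the test. Cdkn1b (chromosome 6, 134920342 to 134925525, plus strand) had 58.4, 56.2 and 55.2 CPM at 8 h, against 59.0, 62.0 and 61.8 CPM at 0 h. All 3 libraries at 8 h lay below the 0 h range, by a small margin. The log2 fold change was -0.12 ± 0.06 (SE), with a 95% interval from -0.26 to 0.02, and did not pass (adjusted p = 0.580, edgeR). Groups that did not overlap in this direction were seen for 6.76% of all tested genes. Cdkn1c (chromosome 7, 143458339 to 143461171, minus strand), an imprinted gene, had 3.76, 5.37 and 3.60 CPM at 8 h, against 4.75, 5.63 and 4.90 CPM at 0 h. These ranges overlapped, and the log2 difference of -0.29 ± 0.20 (SE) did not pass in edgeR (adjusted p = 0.673). At 1 h Cdkn1b had 53.8, 53.4 and 64.9 CPM, of which replicate 3 lay above the 0 h range and the others below it, and Cdkn1c had 4.87, 4.77 and 4.79 CPM, all within the 0 h range. The log2 differences at 1 h over 0 h were -0.09 ± 0.09 (SE) for Cdkn1b and -0.10 ± 0.16 (SE) for Cdkn1c, both with an adjusted p of 1.00 (edgeR). Cdkn1c shares 625 exonic bases with Gm44732 on the opposite strand, so its count is uncertain.

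Per kilobase of exon, a scale on which genes can be compared, Cdkn1a had the lowest mean of the 10 members at 0 h, at 2.21 CPM per kb ± 0.643 (SD, n = 3). It ranked 9 at 1 h, at 2.39 CPM per kb ± 0.448, and 3 at 8 h, at 13.0 CPM per kb ± 3.45 (SD, n = 3 each). Cdkn1b was steady on this scale, at 13.2, 12.4 and 12.2 CPM per kb on average at 0, 1 and 8 h. The ratio of Cdkn1a to Cdkn1b within a library ran from 0.125 to 0.215 at 0 h, from 0.164 to 0.216 at 1 h, and from 0.873 to 1.40 at 8 h.

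In the dark, Ddit4 had the highest length-scaled level, at 43.0 CPM per kb ± 3.75, and Cdkn1b, Gadd45g, Ccnd1, Trp53, Btg1, Gadd45b, Gadd45a, Cdkn1c and Cdkn1a followed in that order. The libraries of Ddit4, Cdkn1b and Gadd45g overlapped with no neighbour in this order. Ccnd1 and Trp53, at 6.85 and 5.90 CPM per kb on average, overlapped with each other, and each neighbouring pair from Btg1 (3.73 CPM per kb) down to Cdkn1a overlapped as well. At 8 h Gadd45g and Cdkn1a took the places after Ddit4, at 16.4 and 13.0 CPM per kb, and overlapped with each other. The range of Cdkn1a at 8 h also overlapped with that of Cdkn1b.

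**Figure D2:**
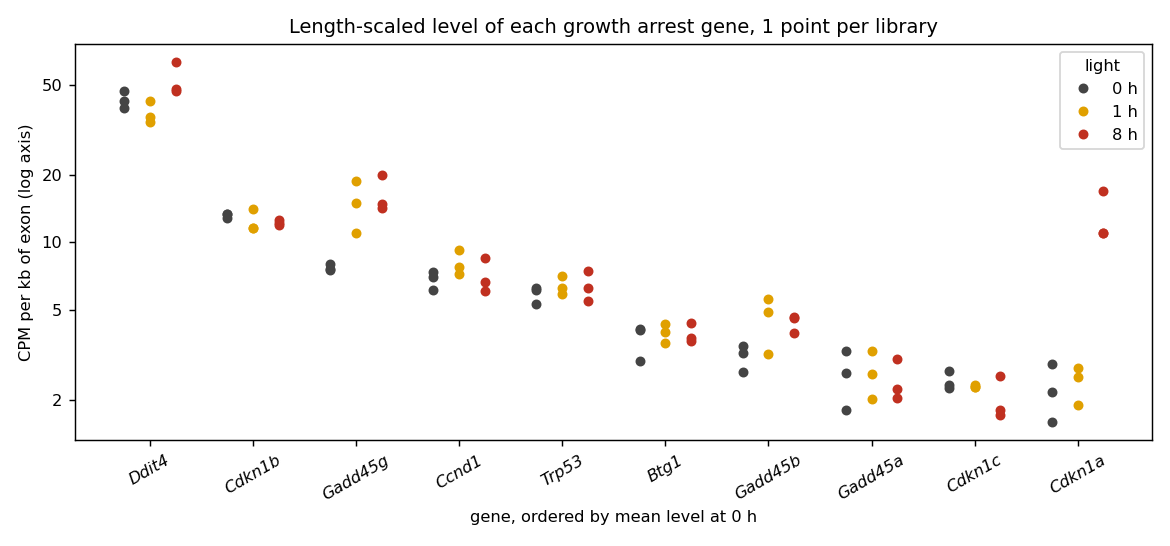
Length-scaled level (CPM per kb of exon, log axis) of the 10 genes in every library, with genes ordered along the x axis by their mean at 0 h; colours give the hours of light. Cdkn1a has the lowest mean at 0 h, 2.21, and a mean of 13.0 at 8 h, beside Cdkn1b at 12.2.

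Among the GADD45 genes, which encode small stress sensors that bind the kinase MAP3K4 and cell cycle proteins, Gadd45g rose at 8 h and was the member with the largest difference at 1 h. The 8 h libraries had 16.1, 15.4 and 21.6 CPM, against 8.14, 8.69 and 8.21 CPM at 0 h. The log2 fold change was 1.07 ± 0.15 (SE), or 2.10-fold, with an adjusted p of 0.0106 (edgeR, over 15330 genes). All 3 libraries at 8 h exceeded all 3 at 0 h, which held for 9.37% of all tested genes. The call was lost without 0 h replicate 1 (adjusted p = 0.0593) and without both 0 h replicate 3 and 8 h replicate 2 (adjusted p = 0.113), with log2 fold changes of 1.06 and 1.14.

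At 1 h Gadd45g already had 16.2, 20.2 and 11.9 CPM, each above the highest 0 h library, 8.69 CPM. Groups that did not overlap were seen at 1 h for 4.63% of all tested genes in the higher direction and 4.06% in the lower. The log2 difference was 0.94 ± 0.18 (SE). In edgeR the unadjusted p was 0.00042, and after adjustment over all genes it missed the threshold (adjusted p = 0.398). DESeq2 called it (adjusted p = 0.0124), as did edgeR without 1 h replicate 3 (adjusted p = 0.0307). The authors' deposited table lists it at a fold change of 1.92 with an FDR of 0.00902. Between 8 h and 1 h it differed by 0.13 ± 0.18 (SE), with a 95% interval from -0.25 to 0.51 (edgeR, adjusted p = 0.884).

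Gadd45b, which is known as an activity-induced gene in hippocampal neurons, had 5.89, 5.85 and 5.03 CPM at 8 h, against 4.07, 4.40 and 3.37 CPM at 0 h. The groups did not overlap, which held in this direction for 9.37% of all tested genes. Its log2 difference of 0.50 ± 0.17 (SE, unadjusted p = 0.0152) missed the threshold in edgeR (adjusted p = 0.325). At 1 h it had 6.23, 7.12 and 4.05 CPM, of which replicate 3 lay inside the 0 h range. The edgeR estimate was 0.54 ± 0.24 on the log2 scale (SE, adjusted p = 1.00).

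Gadd45a, the family member best known as a p53 target, had 2.49, 2.74 and 3.72 CPM at 8 h, against 3.22, 2.20 and 4.04 CPM at 0 h. The 8 h range lay within the 0 h range. Its log2 fold change was -0.08 ± 0.27 (SE, adjusted p = 0.957, edgeR) at 8 h and 0.05 ± 0.29 (SE, adjusted p = 1.00, edgeR) at 1 h. The 95% interval at 8 h ran from -0.68 to 0.53, so a change of the size seen in Gadd45g lies outside it. Gadd45a rests on 19 to 71 reads a library, and 337 of its exonic bases overlap E230016M11Rik on the opposite strand.

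The promoters of the GADD45 genes are shown side by side because Gadd45g is the member of the family that passed at 8 h. Gadd45g covers 51846675 to 51848475 of chromosome 13, plus strand, with the window chr13:51846425-51846674. Gadd45b lies on the plus strand of chromosome 10 (chr10:80929841-80930090), and Gadd45a on the minus strand of chromosome 6 (chr6:67037408-67037657). Capitals mark the same 6 motifs as for Cdkn1a, and all sequences are from RefSeq (GRCm38.p6).
Gadd45g: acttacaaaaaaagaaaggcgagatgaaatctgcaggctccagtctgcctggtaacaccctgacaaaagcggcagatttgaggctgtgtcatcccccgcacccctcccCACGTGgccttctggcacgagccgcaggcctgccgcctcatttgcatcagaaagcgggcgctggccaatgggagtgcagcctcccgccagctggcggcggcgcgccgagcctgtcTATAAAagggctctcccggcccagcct
Gadd45b: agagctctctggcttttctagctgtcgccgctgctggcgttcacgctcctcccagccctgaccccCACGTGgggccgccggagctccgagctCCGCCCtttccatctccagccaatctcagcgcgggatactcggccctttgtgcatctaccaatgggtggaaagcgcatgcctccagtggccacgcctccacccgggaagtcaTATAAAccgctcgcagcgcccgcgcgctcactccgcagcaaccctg
Gadd45a: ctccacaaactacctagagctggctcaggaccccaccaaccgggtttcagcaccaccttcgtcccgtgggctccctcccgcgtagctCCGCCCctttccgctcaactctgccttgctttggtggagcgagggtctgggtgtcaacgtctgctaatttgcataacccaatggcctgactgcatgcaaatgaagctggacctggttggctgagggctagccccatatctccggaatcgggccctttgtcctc
Gadd45g and Gadd45b both hold the E-box CACGTG and a TATAAA element, and Gadd45a holds neither of these letter strings. CACGTG was present in 6.02% of all windows and TATAAA in 12.4%, and 0.517% held both. GGGCGG was present in Gadd45b and Gadd45a and not in Gadd45g. Over the 9 starts of the 8 members with a promoter in the table, AGAACA and TGACTCA had no match. A match is a string of letters in these windows and does not show that a factor binds there.

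Over the 9 libraries, the log2 levels of Gadd45b and Gadd45g had a Pearson r of 0.82, and those of Cdkn1b had an r of -0.83 with Gadd45b and -0.75 with Gadd45g. Cdkn1a had an r of 0.51 with Gadd45g and 0.60 with Ddit4. These values describe libraries that share light times and depth, and carry no test.

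Ddit4 (chromosome 10, 59949675 to 59951770, minus strand), which encodes REDD1, an inhibitor of mTORC1 and a known glucocorticoid target, was the most abundant member per length. It had 79.2, 66.7 and 71.4 CPM at 0 h, 61.0, 71.9 and 57.7 CPM at 1 h, and 81.2, 79.2 and 107 CPM at 8 h. Replicate 3 at 8 h was the highest of all libraries, and every library at 8 h exceeded every library at 1 h. Over 1 h the log2 fold change at 8 h was 0.48 ± 0.12 (SE, unadjusted p = 0.00161), which missed the threshold in edgeR (adjusted p = 0.135) and passed in DESeq2 (adjusted p = 0.00736). Groups that did not overlap in this direction were seen for 8.53% of tested genes (6.77% in the other). Over 0 h it was 0.30 ± 0.12 (SE, adjusted p = 0.406, edgeR) at 8 h and -0.19 ± 0.10 (SE, adjusted p = 1.00, edgeR) at 1 h.

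Trp53, Btg1 and Ccnd1 showed no difference that passed at either time. Trp53 (chromosome 11, 69580359 to 69591873, plus strand) had 17.0, 12.6 and 14.4 CPM at 8 h, against 14.2, 14.0 and 12.2 CPM at 0 h, and the groups overlapped. Its log2 fold change was 0.13 ± 0.13 (SE, adjusted p = 0.809, edgeR), with a 95% interval from -0.17 to 0.42. It had 13.5, 16.1 and 14.4 CPM at 1 h, which differed from 0 h by 0.13 ± 0.12 on the log2 scale (SE, adjusted p = 1.00, edgeR). Btg1 (chromosome 10, 96617001 to 96622813, plus strand), an antiproliferative protein that recruits the CCR4-NOT deadenylase, differed by 0.04 ± 0.13 on the log2 scale at 8 h over 0 h (SE, adjusted p = 0.956, edgeR). Its lowest library was 0 h replicate 1, at 14.9 CPM, and the other 8 lay between 17.8 and 22.0 CPM. Ccnd1 (chromosome 7, 144929931 to 144939937, minus strand), which encodes cyclin D1, the partner of the kinases CDK4 and CDK6, had 37.3, 31.1 and 29.1 CPM at 1 h, against 28.3, 29.6 and 24.6 CPM at 0 h. The groups overlapped and the log2 fold change was 0.23 ± 0.12 (SE, adjusted p = 1.00, edgeR). The 8 h value over 0 h was 0.05 ± 0.13 (SE, adjusted p = 0.933, edgeR). Ccnd1 shares 1100 exonic bases with LTO1 on the opposite strand, so its count is uncertain.

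Counted together, none of the 10 members passed at 1 h over 0 h in edgeR, where 0.0132% of all 15164 tested genes were called higher and 0% lower. Of the members, 2 had an unadjusted p under 0.05, as had 3.2% of all tested genes. DESeq2 called 1 (Gadd45g) beside 0.0923% of all genes, and limma-voom called 0 beside 0.00659%. For 8 h over 0 h, where 0.587% of genes were called, 0.528% higher and 0.0587% lower, 1 of the 9 members other than Cdkn1a was called higher (Gadd45g) and 0 lower. The median log2 fold change of these 9 was 0.06 at 1 h and 0.05 at 8 h, beside 0.0028 and -0.0047 over all tested genes. Between 8 h and 1 h, where 0.507% of genes were called higher, 0 of these 9 passed in edgeR. At an unadjusted p under 0.05 there was 1 of the 9 (Ddit4), beside 749 genes higher and 638 lower of all 15586 tested. DESeq2 called 1 of the 9 (Ddit4) beside 1.28% of all genes. The comparisons of 1 h and of 8 h with 0 h use the same 0 h libraries, so their values are not independent of each other.

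**Figure D3:**
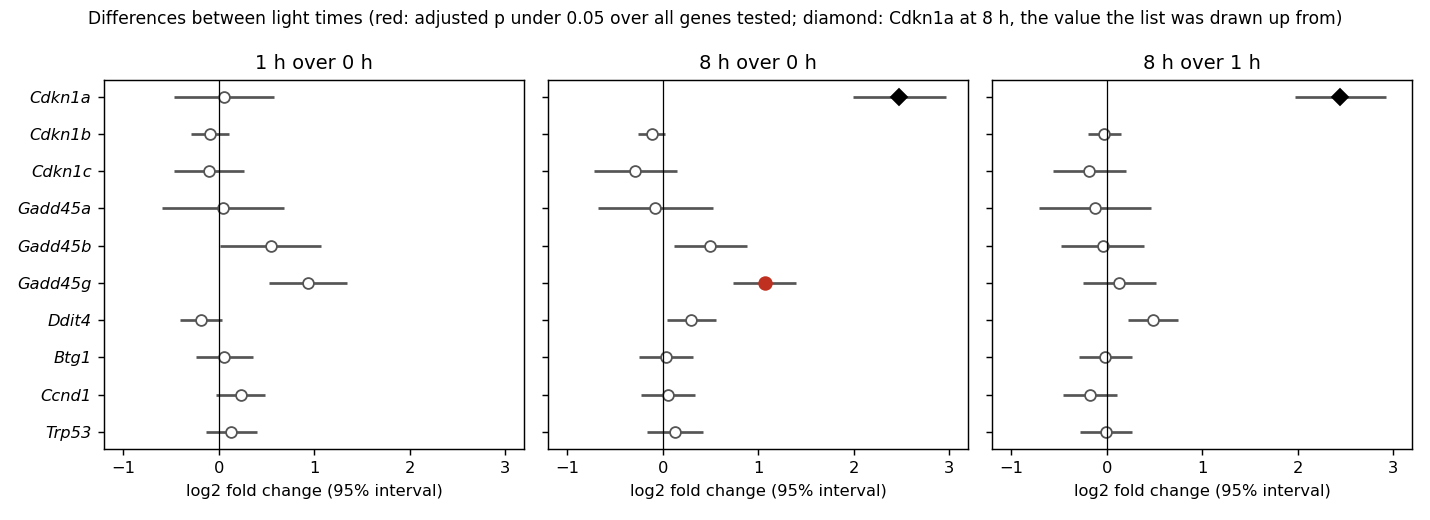
Log2 fold change (x axis) of each member (y axis) at 1 h over 0 h, 8 h over 0 h and 8 h over 1 h, with 95% intervals from the edgeR fit; red marks an adjusted p under 0.05 and diamonds the Cdkn1a values at 8 h that led to the list. Gadd45g at 8 h over 0 h, at 1.07, is the red point.

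Genes of the pathways around these members were examined as lists, which were chosen with earlier results of these data known. Of 25 tested p53 target genes other than Cdkn1a and Gadd45a, 0 passed at 8 h over 0 h in edgeR, DESeq2 or limma-voom, and 2 (8.0%) had an unadjusted p under 0.05, which 10.2% of all tested genes had. Their median log2 fold change was 0.04, and 14 lay above 0 and 11 below. Those with the smallest p were Mdm2, the ubiquitin ligase that p53 induces and that degrades it, at 0.32 ± 0.08 (SE, adjusted p = 0.141, edgeR), and Perp, a desmosomal and apoptosis protein, at 0.87 ± 0.26 (SE, adjusted p = 0.223, edgeR). Perp rests on 7, 24 and 22 reads at 0 h and 43, 48 and 50 at 8 h. At 1 h, 0 of 24 passed with any of the 3 tools, and 2 (8.33%) had an unadjusted p under 0.05, beside 3.2% of all tested genes.

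The genes of the division cycle itself did not pass either. In the 8 h comparison with 0 h, edgeR called 0 of 7 G1 cyclins and cyclin-dependent kinases, 0 of 5 tested INK4 inhibitors and retinoblastoma-family genes, 0 of 8 E2F factors and 0 of 16 tested genes of S and M phase, with medians of 0.16, -0.05, 0.13 and -0.04. At an unadjusted p under 0.05 there was 1 gene of the 36 (2.78%), beside 10.2% of all tested genes. This was E2f2, an activator E2F, at -0.82 ± 0.27 (SE, adjusted p = 0.295, edgeR), and DESeq2 and limma-voom called 0. Cdk1, the kinase of mitosis, was at -0.61 ± 0.34 (SE, adjusted p = 0.598, edgeR). This value rests on few reads, 5, 14 and 11 at 0 h and 12, 9 and 8 at 8 h. Mki67, a marker of dividing cells, averaged 3.75 CPM ± 1.29, 5.35 CPM ± 0.544 and 4.53 CPM ± 1.52 at 0, 1 and 8 h (SD, n = 3 each), and the groups of 8 h and 0 h overlapped.

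Among genes that act with Ddit4 on mTORC1, 0 of 16 passed in edgeR, and 2 had an unadjusted p under 0.05, beside 10.2% of all genes. Deptor, an inhibitor of mTOR, had 37.6, 40.3 and 40.9 CPM at 8 h, against 42.7, 55.4 and 59.9 CPM at 0 h. Its log2 fold change of -0.44 ± 0.11 (SE, adjusted p = 0.129, edgeR) passed in DESeq2 (adjusted p = 0.0147) and in edgeR without 0 h replicate 1 (adjusted p = 0.0335). Txnip, a thioredoxin inhibitor that limits glucose uptake, had 0.41 ± 0.16 (SE, adjusted p = 0.419, edgeR). None of the 9 GADD45 partners, 10 p53 regulators or 4 FoxO factors passed, in edgeR, DESeq2 or limma-voom, with 1 of each list at an unadjusted p under 0.05. These were Map2k7, a JNK pathway kinase that GADD45 proteins bind, at 0.14 ± 0.06 (SE, adjusted p = 0.459, edgeR), Mdm2 again, and Foxo6, a brain FoxO factor, at -0.76 ± 0.26 (SE, adjusted p = 0.307, edgeR).

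Of 9 tested genes of the BTG and TOB family and the CCR4-NOT complex, which Btg1 belongs to or binds, 1 rose. This was Tob2, an antiproliferative relative of Btg1, which averaged 46.7 CPM ± 0.868 in the 8 h libraries, against 30.8 CPM ± 3.37 in those at 0 h (SD, n = 3 each). Its groups did not overlap, which held in this direction for 9.37% of all tested genes. The log2 fold change was 0.57 ± 0.08 (SE, adjusted p = 0.0126, edgeR). The call was lost without 8 h replicate 2 (adjusted p = 0.0945) and without both that library and 0 h replicate 3 (adjusted p = 0.216). Over the 10 lists of this kind together, 1 of 105 tested genes (0.952%) was called at 8 h in edgeR, beside 0.587% of all genes. DESeq2 called 2 (Tob2 and Deptor) beside 1.71% of all genes and limma-voom 1 beside 0.626%, and 0 of 104 at 1 h with any of the 3.

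**Figure D4:**
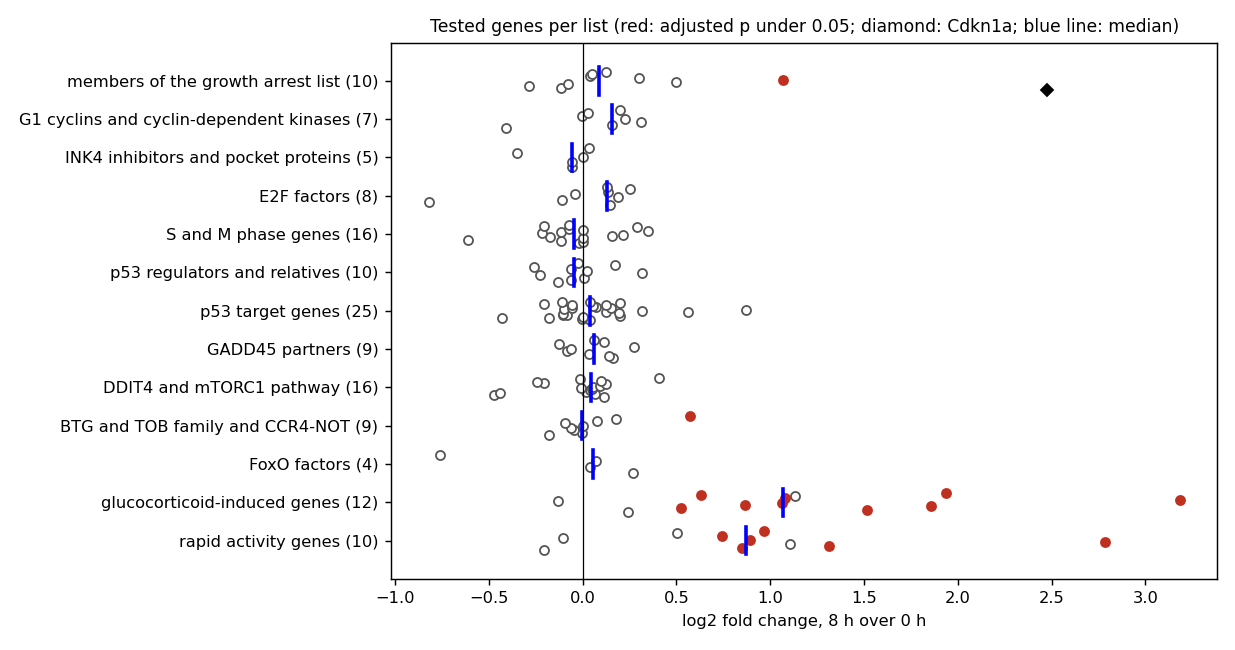
Log2 fold change at 8 h over 0 h (x axis) of every tested gene in the 10 members and in each list (y axis, number tested in brackets); red marks an adjusted p under 0.05, the diamond Cdkn1a and the blue line each list's median. The p53 targets sit around a median of 0.04 with no gene past the threshold, and 9 of 12 glucocorticoid-induced genes are red.

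Glucocorticoid-induced genes, a list that classically includes Cdkn1a and Ddit4 but was counted here without them, had 9 of 12 members called higher at 8 h over 0 h, beside 0.528% of all tested genes, and the median of the 12 was 1.07 on the log2 scale. Plin4 (3.18 ± 0.37), Zbtb16, a zinc finger factor (1.94 ± 0.18), Map3k6, a stress kinase (1.86 ± 0.20), Fkbp5, a chaperone of the glucocorticoid receptor (1.52 ± 0.21), Sgk1, a kinase (1.08 ± 0.10), Nfkbia, the NF-kB inhibitor (1.06 ± 0.12), Mertk, a phagocytic receptor (0.87 ± 0.08), Tsc22d3, which encodes GILZ (0.63 ± 0.11), and Klf9, a Krüppel-like factor (0.53 ± 0.06), were the 9 called (log2 fold change ± SE, edgeR). The count was 7 to 9 without single libraries and 6 without both 0 h replicate 3 and 8 h replicate 2. The list was chosen knowing this rise, and is no independent evidence of its direction. None of the 12 passed at 1 h in edgeR, DESeq2 or limma-voom. At an unadjusted p under 0.05 there were 2 (16.7%), beside 3.2% of all tested genes. Of 10 tested genes of the rapid activity response, 2 were called higher over 0 h at 1 h (Fosb and Fosl2), beside 0.0132% of all tested genes. At 8 h over 0 h, 6 were called higher (Egr1, Fosb, Dusp1, Nr4a1, Fosl2 and Junb), beside 0.528%. These are transcription factors and a phosphatase induced by neuronal firing. The median log2 fold change of the 10 over 0 h was 1.22 at 1 h and 0.87 at 8 h. At 8 h over 1 h all 10 lay below 0, with a median of -0.31, while 48.4% of all tested genes lay above 0. In that comparison 1 of the 10 was called lower, beside 0.0962% of all tested genes. The 1 h count was 7 without 1 h replicate 3 and 0 without any other single library, and the 8 h count was 3 without 0 h replicate 1 or 8 h replicate 2.

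The genes whose pattern over the 9 libraries was most like that of Cdkn1a, by Pearson r of log2 CPM among 15585 genes, were Mast4 (0.973), Nova2 (0.968), Net1 (0.968), Tunar (0.962) and Plin4 (0.962). Mast4 encodes a microtubule-associated kinase, Nova2 a neuronal splicing factor, Net1 an activator of RhoA, Tunar a long non-coding RNA and Plin4 a lipid droplet coat protein. By Spearman correlation none of these was among the first 5, and 2 of them were within the first 100. In all 5, as in Cdkn1a, the 3 libraries at 8 h lay above the other 6. The 5 were picked by their likeness to Cdkn1a in these same libraries, so this order follows from the choice and is no separate result. Over all tested genes, 9.37% had 8 h libraries all above those at 0 h, and 8.53% all above those at 1 h. On the log2 scale the 8 h level over 0 h was 3.18 for Plin4, 1.38 for Net1, 0.78 for Tunar, 0.43 for Mast4 and 0.15 for Nova2. Plin4 had 0.453, 0.530 and 0.513 CPM at 1 h, from 4, 9 and 9 reads. At 0 h it had 0.679, 1.02 and 1.06 CPM, from 4, 19 and 16 reads. Its log2 difference at 1 h was -0.93 ± 0.35 (SE, adjusted p = 1.00, edgeR), and that of Cdkn1a was 0.05.

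**Figure D5:**
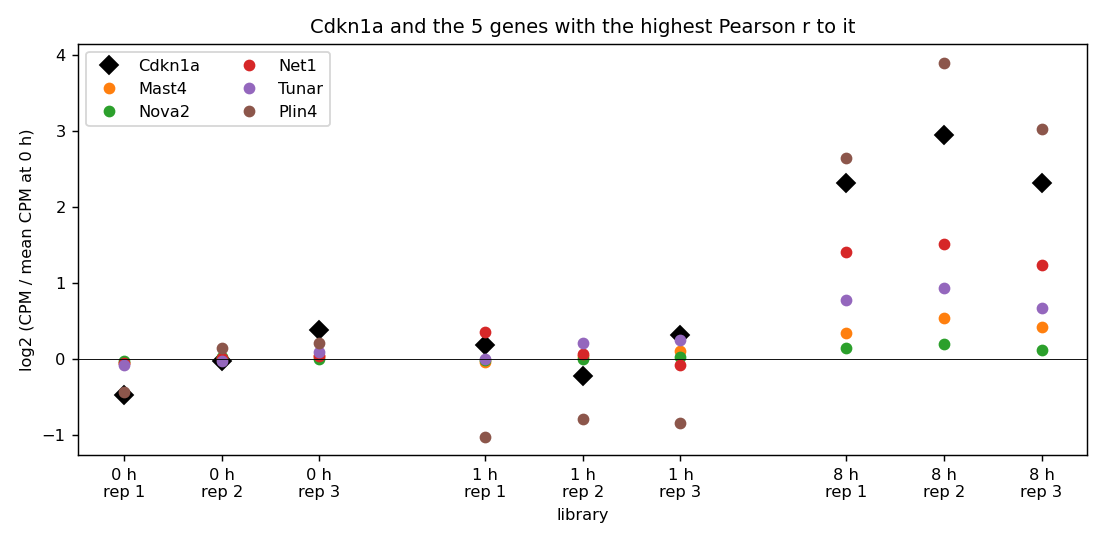
Log2 of the CPM over the mean at 0 h (y axis) in each library (x axis) for Cdkn1a (diamonds) and the 5 genes most like it by Pearson r. In the 6 genes the 3 libraries at 8 h are above all others, with Plin4 highest and Nova2 lowest. The 5 were picked by this likeness, so the shared order follows from the choice.

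Marker sums were compared with the Cdkn1a values in the same libraries. The 6 relay neuron markers summed to 2449 to 2614 CPM at 8 h, against 2180 to 2240 CPM at 0 h, of which Prkcd, a kinase gene of relay neurons, made up 1540 and 1264 CPM on average. As single genes, 3 of the 6 were above 0 on the log2 scale and 3 below, with a median of -0.02. At an unadjusted p under 0.05 (edgeR) there were 2 (33.3%), beside 10.2% of all tested genes. At 8 h over 0 h DESeq2 called 1, beside 1.71% of all genes, and edgeR and limma-voom called 0. At 8 h over 1 h, 2 of the 6 were above 0 and 4 below, with a median of -0.10. There edgeR called 1 higher, beside 0.507% of all tested genes. DESeq2 also called 1 in that comparison, beside 1.28%, and limma-voom 1. The 6 microglia markers summed to 225 to 244 CPM at 8 h, against 255 to 271 CPM at 0 h. As single genes at 8 h over 0 h, 1 of these 6 was above 0 on the log2 scale and 5 below, with a median of -0.15. Of them, 3 had an unadjusted p under 0.05 (edgeR), with none called in edgeR, DESeq2 or limma-voom. The sums of astrocyte, oligodendrocyte, oligodendrocyte precursor, endothelial, pericyte, inhibitory neuron, cortical neuron, choroid plexus and blood markers overlapped between 8 h and 0 h. Most of the cortical neuron sum was Slc17a7, at 418, 636 and 406 CPM of 422, 680 and 409 CPM at 0 h. That sum therefore says little about Neurod6 and the other genes of its list. Of the listed markers, 5 of 6 for astrocytes and 4 of 5 for choroid plexus were in both tables, and all of the others were. Inhibitory neuron markers summed to 337 to 535 CPM at 8 h, against 204 to 342 CPM at 1 h and 161 to 474 CPM at 0 h. Of these 6 genes, 5 were above 0 on the log2 scale at 8 h over 0 h (median 0.47, 1 at an unadjusted p under 0.05) and 6 at 8 h over 1 h (median 0.72, 3 at an unadjusted p under 0.05), with none called in edgeR, DESeq2 or limma-voom. Endothelial markers summed to 132 to 149 CPM at 8 h and 140 to 156 CPM at 0 h. The overlap of these sums does not show that the single genes were unchanged. At 8 h over 0 h, 2 of the 6 were above 0 on the log2 scale and 4 below, from -0.54 to 0.54. Of these 6, 3 had an unadjusted p under 0.05 (edgeR), beside 10.2% of all tested genes. DESeq2 called 1, beside 1.71%, and edgeR and limma-voom called 0. The part of these cell types in the Cdkn1a values was not tested, and in tissue RNA more cells of a type and more RNA per cell cannot be told apart.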

How the data were processed

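Per the labels' protocols, ribosomal RNA was removed from total RNA, which was then sequenced. The submitters' processing notes name BWA, edgeR 3.14.0 and GRCm38 (mm10), with no step given. No source used here states the counting program, annotation release or use of strand. The raw counts per gene and library used here are the deposited values, whole numbers with at least 4 reads over the 6 libraries of a comparison. The deposited density signal was used only to check them. The authors' deposited fold change (ratio of light over 0 h), p-value and FDR are quoted as theirs. Counts at 0 h were identical in both sets of tables, and 25 symbols stored as dates were restored by Entrez number.

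Comparisons with 0 h were fitted on their 6 libraries and 8 h against 1 h on all 9, with edgeR 4.0.16 in R 4.3.3 (TMM, filterByExpr, glmQLFit with package defaults, two-sided quasi-likelihood test, Benjamini-Hochberg over all genes tested, threshold 0.05). Standard errors come from the fold change and F statistic. All 10 members passed the low-count filter in each fit. CPM use TMM-scaled sizes of all 9 libraries, and log2 CPM a prior count of 2. Alternatives used DESeq2 1.42.0, limma 3.58.1 (voom), other scalings, no filter, other libraries and a block. The edgeR procedure was tested on simulated data with 200 changed genes per comparison. For 1 h over 0 h, 8 h over 0 h and 8 h over 1 h it recovered 80, 77 and 75% of log2 changes of size 1. Of those of size 2 it recovered 92, 98 and 95%. False calls numbered 22, 16 and 8. The fits of the measured data called 2, 90 and 94 genes, and the adjustment depends on how many genes change. The simulated shares therefore need not hold for them. Members, lists, motifs and rules for naming genes were chosen with earlier results of these data known. Named beside the members were the genes of each pathway list that passed, or else up to 2 with the smallest p, and the 5 genes with the highest Pearson r with Cdkn1a. Mki67, Slc17a6, Prkcd, Neurod6, Xist and Ddx3y were chosen after their values were seen. The cell type markers were relay and inhibitory neurons, cortical neurons, glia, vessels, choroid plexus and blood. P-values measure the spread between these libraries.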

Additional observations from a re-analysis of the deposited data

Results flagged for a closer look

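Cdkn1a differed between the light times: its log2 fold change at 8 h over 1 h was 2.45, with all 3 libraries at 8 h (22.3 to 34.4 CPM) above all 3 at 1 h (3.82 to 5.58 CPM). The difference from 0 h was thus seen at 8 h and not at 1 h. Because the 8 h rise of this gene led to its choice, the difference is given as a description.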

How the results depend on the processing

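Each comparison was refitted under 16 alternatives. The log2 fold change of Cdkn1a at 8 h ran from 2.24 to 2.70 over 0 h and from 2.21 to 2.59 over 1 h. The counts of members that follow include Cdkn1a, which was called in all 16 alternatives in both comparisons of 8 h. That call is no test, as the list was chosen from it. Without Cdkn1a the fits reported had 1 call at 8 h over 0 h and 0 at 8 h over 1 h. At 1 h over 0 h the count called was 1 with DESeq2 and 0 to 1 without single libraries. At 8 h over 0 h it was 1 to 2 without single libraries and 1 without both libraries with RNA of 1 sex, an alternative chosen after seeing the data like the one with legacy = FALSE (legacy = TRUE is the package default). At 8 h over 1 h it was 2 with DESeq2. Gadd45g at 8 h over 0 h was called in 14 of 16.

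In the fit of all genes, the calls ran from 0 to 14 at 1 h, 24 to 262 at 8 h over 0 h and 16 to 199 at 8 h over 1 h, beside 2, 90 and 94 in the fits reported. The 10 pathway lists together had 2 calls at 8 h with DESeq2, 0 to 2 without single libraries and 0 without both libraries with RNA of 1 sex. Glucocorticoid-induced genes at 8 h over 1 h had 10 calls, 5 to 9 without single libraries (5 without 1 h replicate 1 or 8 h replicate 2) and 6 without both libraries with RNA of 1 sex. Rapid activity genes at 1 h had 5 calls with DESeq2, 1 with limma-voom, 1 with legacy = FALSE, 0 with the replicate block, 0 without the libraries with the most Neurod6, 0 without 0 h replicate 3 and 0 to 7 without single libraries. At 8 h over 0 h they had 3 to 6 without single libraries and 3 without both libraries with RNA of 1 sex. At 8 h over 1 h they had 1 call, for a lower level at 8 h, and 0 to 1 without single libraries. There were 0 with limma-voom, the 6 libraries compared, the replicate block, without the libraries with the most Neurod6 or without those with RNA of 1 sex.

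Signs turned for members near 0 when single libraries were left out. At 1 h over 0 h, the log2 fold changes ran from -0.082 to 0.28 (Cdkn1a), -0.052 to 0.14 (Btg1) and -0.21 to 0.32 (Gadd45a), and without the libraries with the most Neurod6 they were -0.054 (Cdkn1a) and -0.21 (Gadd45a). At 8 h over 0 h they ran from -0.065 to 0.10 (Btg1), -0.34 to 0.21 (Gadd45a, 0.26 without both libraries with RNA of 1 sex) and -0.10 to 0.15 (Ccnd1). At 8 h over 1 h they ran from -0.27 to 0.16 (Gadd45b), -0.13 to 0.0903 (Trp53), -0.080 to 0.073 (Cdkn1b), -0.32 to 0.094 (Gadd45a), -0.064 to 0.35 (Gadd45g) and -0.10 to 0.061 (Btg1). There Gadd45b was 0.015 with limma-voom and 0.0038 without the libraries with the most Neurod6, and Trp53 was 0.0885 without those with RNA of 1 sex. The cause of these changes was not tested.

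The replicate number as a block gave 0 members called at 1 h, 2 at 8 h over 0 h and 1 at 8 h over 1 h, as without the block. Cdkn1a is among those called in both comparisons of 8 h. Same-numbered libraries deviated together with r from -0.21 to 0.19, and 2, 4 and 2 of 6 libraries matched best with their own number in the 3 comparisons. At 8 h over 0 h, where 4 matched, r ran from 0.02 to 0.14. These values do not settle whether same-numbered libraries were paired. Over all genes the block gave 0, 158 and 75 calls, beside 2, 90 and 94 without it. The shallowest library, 0 h replicate 1 at 5.73 M counts, limits the low members Gadd45a, Gadd45b, Cdkn1a and Cdkn1c, which had 19 to 28 reads there.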
